A study of Mus musculus with 8 samples.

Results

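A set of 7 genes that carry activating and inhibitory signals at the surface of myeloid cells was followed through the ac4C peak lists of the study. They were Sirpa and Lilrb4a (inhibitory receptors), Trem2 (an activating receptor), Tyrobp and Fcer1g (adaptors), and Syk and Plcg2 (cytoplasmic enzymes). A peak was a member if 1 or more of its bases lay, strand matching, in the mm39 span of 1 of these 7 genes. In this way 95 of the 105252 peaks of the 4 lists were members, and they merged into 63 of 75389 regions, a region being a run of overlapping same-strand peaks of any list. The genes were chosen from a pathway with earlier results of these same lists known, among them high-ranked regions inside the Sirpa and Lilrb4a spans that only 1 genotype held. Peak calls and ranks by genotype are therefore given as a description, without a test.

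N4-acetylcytidine (ac4C) is an acetylated cytosine in RNA, and Nat10 encodes the RNA cytidine acetyltransferase that makes it. The cells were mouse bone marrow-derived monocytes taken through 3 days of osteoclast differentiation with RANKL, the cytokine that drives osteoclast formation. The groups were WT mice and mice with a Nat10 conditional knockout (CKO); the labels do not give the Cre driver, strain, age or sex of the mice. Antibody-precipitated (IP) and input RNA came from 4 samples each (2 WT and 2 CKO), and each IP with its input was reduced by the authors to 1 peak list of mRNA. The 4 lists are called WT 1, WT 2, CKO 1 and CKO 2 below. The titles number the replicates of a genotype as distinct samples; the labels do not tie them to distinct mice or cultures, so the spread between them may be technical.

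An ITAM (immunoreceptor tyrosine-based activation motif) is a short cytoplasmic stretch that, once its tyrosines are phosphorylated, recruits the kinase Syk and so starts calcium signalling through phospholipase C gamma. An ITIM (immunoreceptor tyrosine-based inhibitory motif) instead recruits phosphatases that dampen such signals. In osteoclast precursors, ITAM adaptors give the costimulatory calcium signal that acts beside RANKL to induce the transcription factor Nfatc1.

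The lists held 28065 (WT 1), 24851 (WT 2), 28087 (CKO 1) and 24249 (CKO 2) peaks in all. No read counts come with the peaks, so the depth is unknown, and a missing peak can be a signal under the authors' threshold, a call left out of the list or a transcript with few reads in that library. Loss of Nat10, gene expression and the cell type of the cultures could not be checked in these lists, which hold positions and no gene names. For all 7 genes the chromosome of the span was that of the RefSeq gene table at hand, which is of the older build GRCm38.p6, the strand was that of the matching promoter table for the 4 genes it lists, and no other gene of that table overlapped any of the 7. No peak crossed the edge of a span, and the spans held 0 peaks on the opposite strand.

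The number of peaks differed between the genes. Plcg2 had 29 peaks over the 4 lists, Syk 21, Sirpa 17, Lilrb4a 15, Trem2 8, Fcer1g 4 and Tyrobp 1. Long spans offer more room for calls: those of Plcg2 and Syk measure 137 and 67 kb and that of Sirpa 41 kb, against 4 to 7 kb for the other 4. Lilrb4a, with a span of 6 kb, had more peaks than Trem2 with 7 kb. For their length, Fcer1g (4 peaks in 5 kb) and Trem2 (8 in 7 kb) held more than Plcg2 (29 in 137 kb). Tyrobp had 1 in 4 kb. The order of the numbers is therefore not an order of peak density. Of the 7 genes, 5 had a peak in every list. Tyrobp and Fcer1g, with 1 and 4 peaks in spans of 4 and 5 kb, did not. How many genes have a peak in every list was not counted over the whole lists, so nothing is read from this.

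For no gene were all lists of a genotype above all lists of the other, either in the number of peaks or in the bases they covered. In Tyrobp and Fcer1g, and for the number of peaks in Lilrb4a, this rested on a tie between lists. How many genes split by genotype over the whole lists was not counted, so nothing is read from this. Taking the 7 genes as a whole, WT 1 had 25 peaks, WT 2 had 24, CKO 1 had 17 and CKO 2 had 29, giving means of 24.5 ± 0.707 (WT) and 23.0 ± 8.49 (CKO; SD, n = 2 each). The difference of 1.5 peaks was smaller than the spread between the CKO lists. Covered bases came to 2468 in WT 1, 3773 in WT 2, 2039 in CKO 1 and 2711 in CKO 2, so that the genotypes overlapped here too. With 2 lists against 2, an exact two-sided permutation test cannot go below p = 0.333, and none was run.

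**Figure D1:**
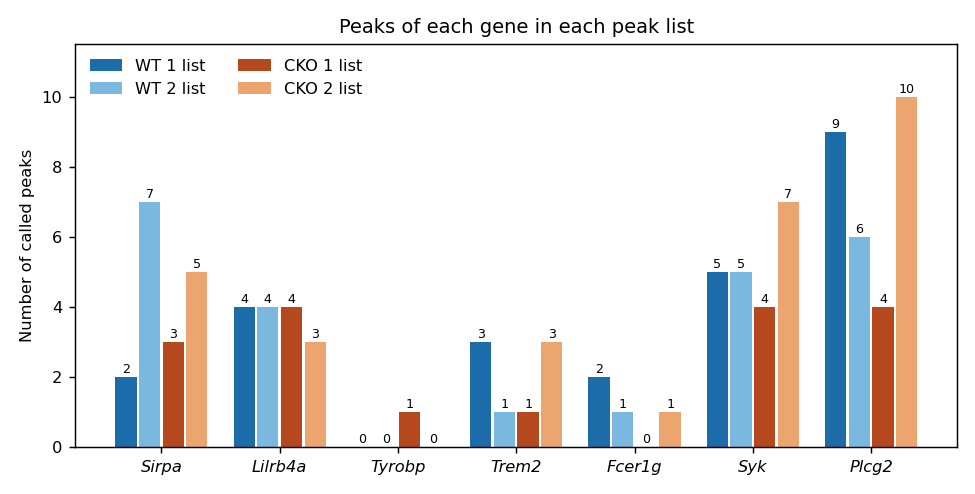
Number of called peaks of each gene (vertical axis) in each of the 4 peak lists (bars; WT in blue, CKO in orange). WT and CKO bars overlap or tie in every gene. Tyrobp has 1 peak, in the CKO 1 list, and Fcer1g has none in that list.

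Most of the 63 regions were held by 1 list. This was so for 37 regions (58.7%), against 69.1% of all regions of the 4 lists. Another 12 (19%) were held by 1 WT and 1 CKO list, against 15.8% of all regions, and 6 (9.52%) by 3 lists, against 6.24%. No region of the 7 genes was held by all 4 lists, a class with 0.964% of all regions. Both WT lists and no CKO list held 5 regions (7.94%, background 4.26%): 2 in Sirpa, 2 in Lilrb4a and 1 in Plcg2. Both CKO lists and no WT list held 3 regions (4.76%, background 3.64%), 1 each in Sirpa, Lilrb4a and Syk. Since Sirpa and Lilrb4a were chosen with such regions in view, nothing is read from these shares.

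**Figure D2:**
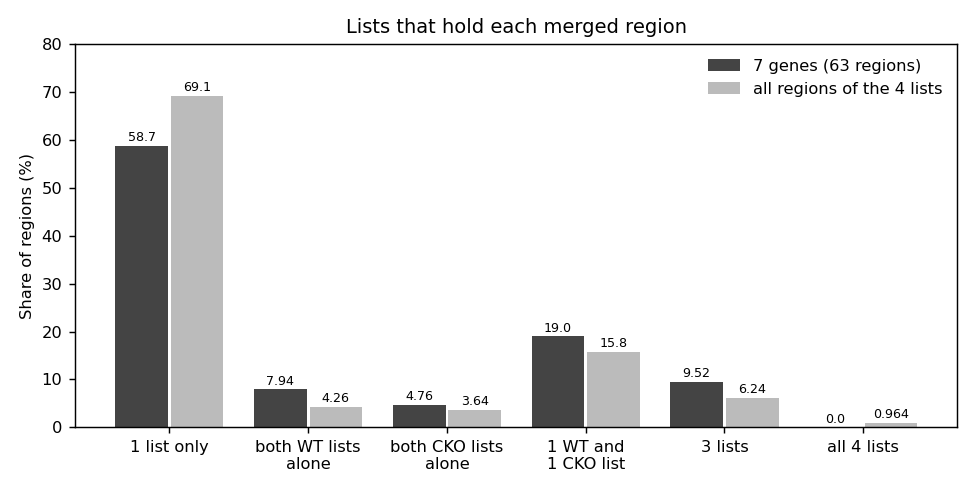
Share of merged regions (%, vertical axis) by the lists that hold them (horizontal axis), for the 63 regions of the 7 genes (dark bars) and for all 75389 regions (light bars). The dark bar for 1 list is at 58.7% and the light one at 69.1%; no dark bar stands in the class of all 4 lists.

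Sirpa encodes signal regulatory protein alpha, the ITIM receptor for CD47. It lay on chromosome 2, plus strand. Its lists held 2 (WT 1), 7 (WT 2), 3 (CKO 1) and 5 (CKO 2) peaks, so WT 1 was lowest and WT 2 highest and the genotypes overlapped. The region closest to the 3′ edge of the span, at bases 129473733 to 129473955, was held by both WT lists alone. Its peak stood at percentile 99.5 of WT 1 and 99.6 of WT 2 by the authors' score, where 100 is the highest score of a list. The nearest CKO peak was 1675 bases away, counted in the genome like all distances here. This is one of the regions for which the gene was chosen. A second region of both WT lists alone, at bases 129469866 to 129469895, was 30 bases long and stood at percentile 73.4 of WT 1 and 90.7 of WT 2.

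In the opposite direction, bases 129457367 to 129457465 of Sirpa were held by both CKO lists alone, at percentile 85.0 of CKO 1 and 68.2 of CKO 2, with a WT peak 677 bases away. Near the 5′ edge of the span each CKO list held a peak, at bases 129435115 to 129435287 in CKO 1 and 129434884 to 129434995 in CKO 2, and these did not overlap each other. The first WT peak lay at bases 129450824 to 129450912, in WT 2. WT 2 and CKO 2 shared the regions at bases 129458143 to 129458177 and 129471847 to 129472057. In WT 2 all 7 Sirpa peaks stood at percentile 80.5 or higher, and the 2 of WT 1 stood at 73.4 and 99.5. The highest WT peak of each list was of the region for which the gene was chosen. The highest Sirpa peak of a CKO list stood at 85.0 (CKO 1) and 73.8 (CKO 2). WT 2 ranked high over the 7 genes together, with a median percentile of 84.9 against 46.7 in WT 1. Ranks are within a list and do not compare amounts between lists.

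Lilrb4a encodes an ITIM receptor of the leukocyte immunoglobulin-like family. It lay on chromosome 10, plus strand, beside Lilr4b, a closely related gene, and the sources used here do not say how reads that fit both copies were placed. Its lists held 4, 4, 4 and 3 peaks in the order WT 1, WT 2, CKO 1, CKO 2, so CKO 1 tied with the WT lists. Its highest-ranked peaks lay at different genomic positions in the 2 genotypes. Bases 51371312 to 51371602 were held by both WT lists alone, at percentile 100.0 (a rounded value) of WT 1 and 99.6 of WT 2. Both CKO lists alone held bases 51370980 to 51370989, at percentile 99.8 of CKO 1 and 99.5 of CKO 2. These regions were 322 bases apart in the genome, and both were among those for which the gene was chosen. Exon positions were not analysed, so how far apart they lie in the mRNA is not known.

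The CKO region of Lilrb4a was very short: its peak was 10 bases wide in CKO 1 and 1 base wide in CKO 2, and both ended at the same base. The WT peaks were 290 and 291 bases wide and began at the same base. Peaks as narrow as 1 base were rare, with 72 among all 105252 peaks and 2 in the 7 genes, both in Lilrb4a. With peaks under 50 bases left out, the CKO region was gone and the WT region stayed. The sources used here do not say how so short a peak received its score.

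Further regions of Lilrb4a were shared across genotypes. Bases 51367530 to 51367814, near the 5′ edge, were held by WT 2 (percentile 62.6), CKO 1 (78.7) and CKO 2 (51.8), and all 3 peaks began at the same base. Bases 51371948 to 51372155, near the 3′ edge, were held by WT 2 (91.5) and CKO 1 (87.9). Both WT lists alone held bases 51368459 to 51368659, at the low percentiles of 27.3 and 46.5, with a CKO peak 645 bases away. Within 6 kb, Lilrb4a held regions of both genotypes, of WT alone and of CKO alone.

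Trem2 encodes a lipid-binding activating receptor that signals through the Tyrobp adaptor. On chromosome 17, plus strand, it had 3 (WT 1), 1 (WT 2), 1 (CKO 1) and 3 (CKO 2) peaks, means of 2.0 ± 1.41 in both genotypes (SD, n = 2 each). None of its 4 regions was held by both lists of only 1 genotype (4.26% of all regions for WT, 3.64% for CKO). Bases 48658129 to 48658153 were held by WT 1, CKO 1 and CKO 2 from the same first base. The rank of this peak of 16 to 25 bases ran from percentile 9.7 in WT 1 and 24.0 in CKO 1 to 99.5 in CKO 2, and WT 2 had none. WT 1 and CKO 2 also shared bases 48655485 to 48655688 (percentiles 35.4 and 73.1), and WT 2 and CKO 2 shared bases 48658774 to 48658958 (78.3 and 29.3).

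Tyrobp encodes the transmembrane ITAM adaptor of Trem2 and other receptors. It had 1 peak in all, of 27 bases, on chromosome 7, plus strand, at bases 30113767 to 30113793 in CKO 1, at percentile 43.2. WT 1, WT 2 and CKO 2 held none. A count this small does not compare the genotypes.

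Fcer1g encodes the Fc receptor gamma chain, the ITAM adaptor of Fc receptors and of further activating receptors. On chromosome 1, minus strand, it had 2, 1, 0 and 1 peaks in the order WT 1, WT 2, CKO 1, CKO 2. WT 1, WT 2 and CKO 2 held bases 171058746 to 171058837, with the same first and last base in each list. That peak stood at percentile 81.2 of WT 1, 96.7 of WT 2 and 20.6 of CKO 2, and CKO 1 had none. WT 1 alone also held bases 171057636 to 171057656, at percentile 92.0.

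Syk encodes the tyrosine kinase that binds phosphorylated ITAMs. On chromosome 13, plus strand, it had 5, 5, 4 and 7 peaks in the same order. Of its 21 peaks, 11 lay in the last 5 kb of the 67 kb span (1, 4, 2 and 4 per list). The window was set after the positions had been seen. It held 5 of 17 peaks in Sirpa and 1 of 29 in Plcg2. Spans are genomic and exon positions were not analysed, so no gathering of peaks along the mRNA is read from this. The 11 Syk peaks formed 7 regions. Bases 52799759 to 52800121 were held by WT 2 (percentile 12), CKO 1 (40.8) and CKO 2 (76.0), again from the same first base. Bases 52800395 to 52800597 were held by WT 2 (95.7) and CKO 2 (92.4). Both CKO lists alone held bases 52802359 to 52802667, at percentiles 43.5 and 77.9, and the nearest WT peak was 108 bases away.

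Farther 5′ in Syk, bases 52766331 to 52766451 were held by WT 1, CKO 1 and CKO 2 at percentiles 49.5, 76.1 and 57.4. Their peaks began at the same base and were 121, 53 and 33 bases wide. WT 2 and CKO 2 shared bases 52792074 to 52792233, at percentiles 98.3 and 84.9. No region of Syk was held by both WT lists alone, a class with 4.26% of all regions.

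Plcg2 encodes phospholipase C gamma 2, which cleaves a membrane phosphoinositide to release calcium below Syk. On chromosome 8, plus strand, it had 9 (WT 1), 6 (WT 2), 4 (CKO 1) and 10 (CKO 2) peaks. The CKO lists were the lowest and the highest of the 4, and the WT mean was 7.5 ± 2.12 against a CKO mean of 7.0 ± 4.24 (SD, n = 2 each). Of its 21 regions, 14 (66.7%) were held by 1 list, against 69.1% of all regions. Bases 118330561 to 118330643 were held by WT 1 (percentile 30.3), CKO 1 (65.2) and CKO 2 (72.2). The 1 region of both WT lists alone, bases 118316582 to 118316711, stood at percentiles 31.9 and 78.7, 524 bases from the nearest CKO peak.

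Among the 7 Plcg2 regions in 2 or more lists, 5 were held by 1 WT and 1 CKO list. They made up 23.8% of the gene's regions, against 15.8% of all regions. No Plcg2 region was held by both CKO lists alone, a class with 3.64% of all regions. WT 1 and CKO 1 shared bases 118331930 to 118331970 and 118333810 to 118333933. WT 2 and CKO 2 shared bases 118284808 to 118284847 and 118325161 to 118325213, and WT 1 and CKO 2 shared bases 118341954 to 118342006. Its highest-ranked peak, at percentile 99 of WT 2, lay at the 3′ edge of the span (bases 118361524 to 118361647) and had no partner in another list.

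**Figure D3:**
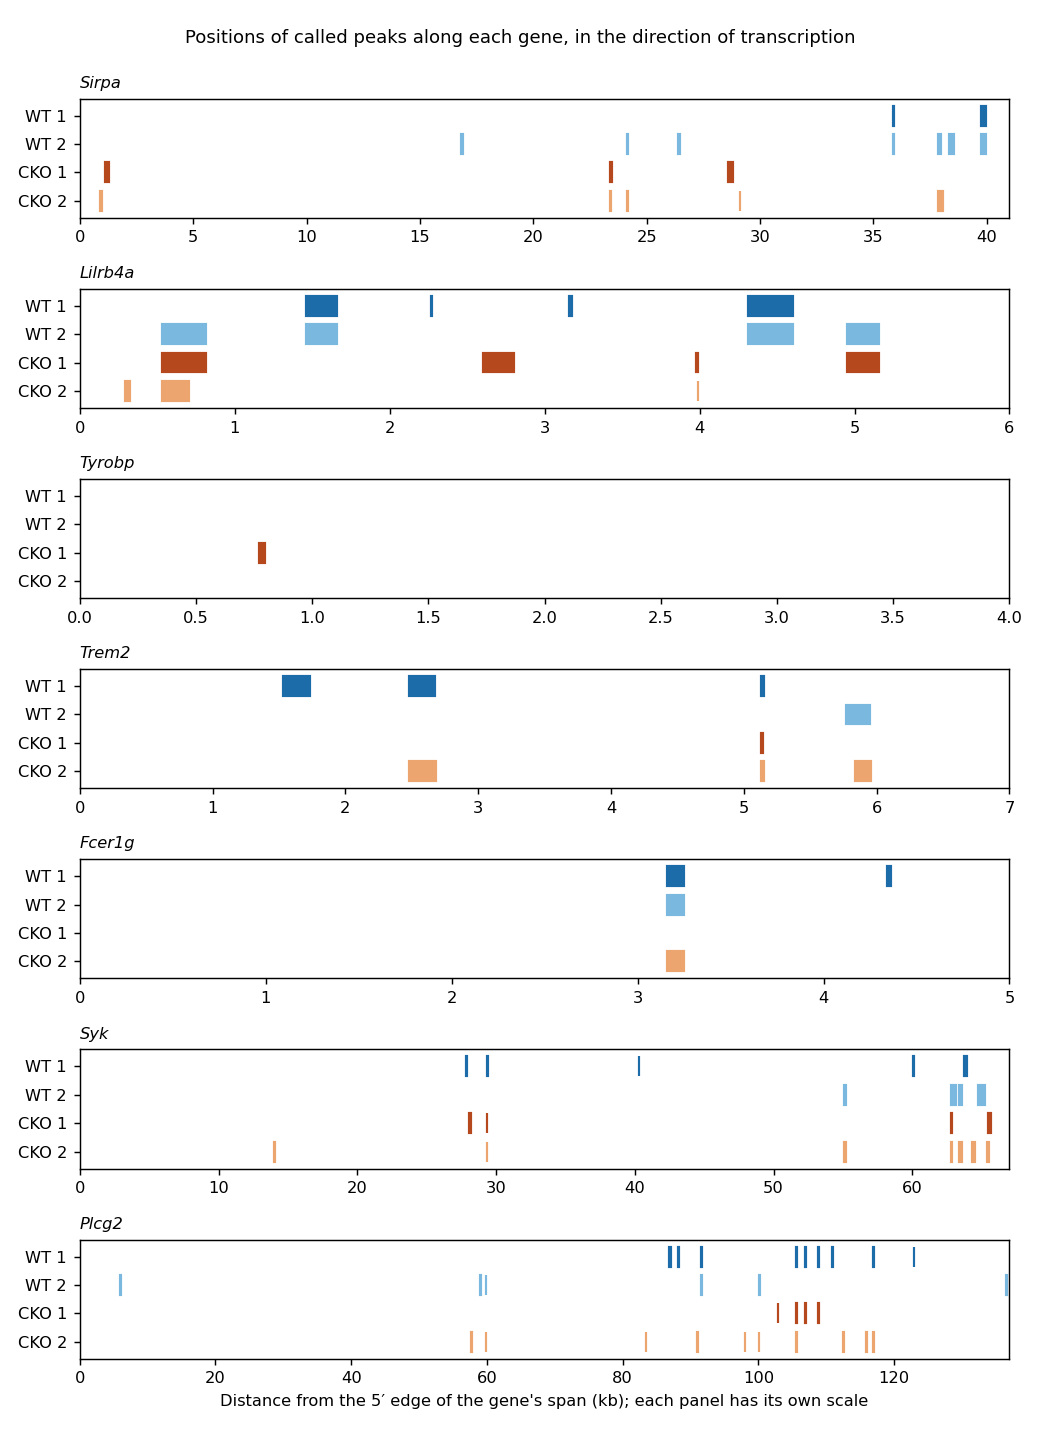
Called peaks of the 7 genes along their spans (horizontal axis, kb from the 5′ edge of the span in the direction of transcription, with a scale of its own per gene) in the 4 lists (rows). Bars are peaks, outlined so that narrow ones can be seen. In Syk 11 of 21 peaks lie in the last 5 kb of the genomic span, in Sirpa 5 of 17 and in Plcg2 1 of 29. In Lilrb4a the WT peaks at 4.31 kb stand beside short CKO peaks, and the WT 2 and CKO 1 peaks at 4.95 kb overlap.

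Peaks of different lists often shared an edge, mostly the start in genome order. Of the 26 regions held by 2 or more lists, 22 (84.6%) had peaks of different lists with an identical start or end. Among all 23274 such regions of the 4 lists the share was 74.0%. In the 7 genes, the start in genome order was a shared edge in 19 of the 22 regions and the end in 6. A shared edge was found in 7 of 7 such regions of Plcg2, 5 of 5 of Sirpa, 4 of 5 of Lilrb4a, 3 of 5 of Syk, 2 of 3 of Trem2 and 1 of 1 of Fcer1g. Whether these edges are exon ends was not tested, because no mm39 annotation was used here. The peaks of the 7 genes had a median width of 105 bases, and 28 of 95 (29.5%) were under 50 bases, against a median of 114 bases and 22.4% for all peaks.

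The ranks of the 7 genes' peaks were highest in WT 2. Their median percentile was 46.7 in WT 1, 84.9 in WT 2, 57.3 in CKO 1 and 57.8 in CKO 2, so WT 2 stood apart from the other WT list as well as from the CKO lists. This was not tested. In the top 5% of their lists stood 14 of the 95 peaks: 2 in WT 1, 9 in WT 2, 1 in CKO 1 and 2 in CKO 2. The 3 Sirpa and Lilrb4a regions that stood above percentile 99 in both lists of a genotype account for 6 of these. Without these regions the median percentiles were 36.1 in WT 1, 82.0 in WT 2, 51.4 in CKO 1 and 57.6 in CKO 2. In the top 5% there remained 8 of 89 peaks (8.99%), of which 7 were in WT 2 and 1, in Trem2, in CKO 2. The 7 peaks of WT 2 comprised 3 in Sirpa, 2 in Syk and 1 each in Fcer1g and Plcg2, and none was in Trem2, Tyrobp or Lilrb4a. The genes were still those chosen with these lists in view, so leaving out the regions does not undo that choice.

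**Figure D4:**
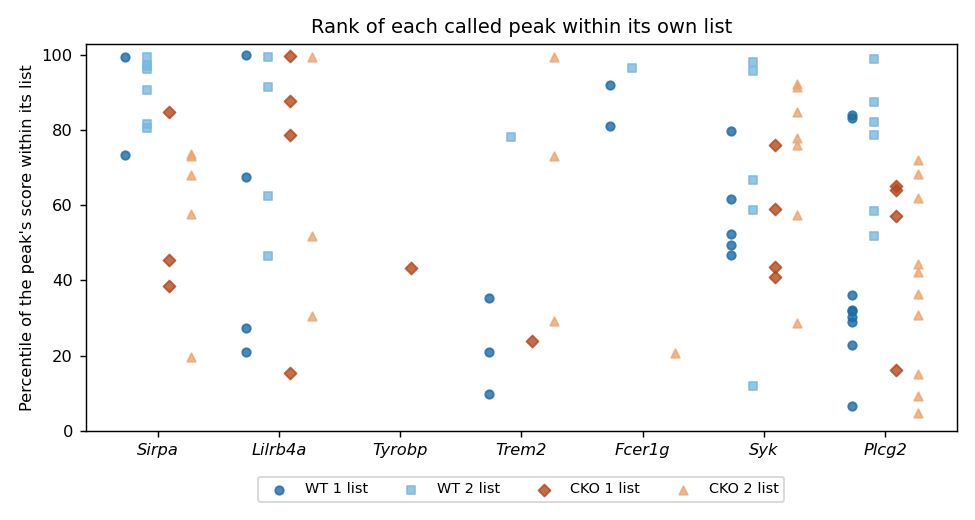
Percentile of each called peak's deposited score within its own list (vertical axis) for the 7 genes (horizontal axis), by list (colour and marker). WT 2 points of Sirpa lie at 80.5 or higher and its WT 1 points at 73.4 and 99.5. The highest Sirpa point of each WT list is of the region for which the gene was chosen. The highest Sirpa points of the CKO lists lie at 85.0 (CKO 1) and 73.8 (CKO 2). The Trem2 points run from 9.7 to 99.5.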

How the data were processed

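Each list holds peaks of 1 anti-ac4C IP library over its input. The submitters' processing notes list MACS2 2.2.7.1, STAR 2.7.8a, fastp 0.20.1 and mm39. Every peak has a score deposited by the authors; the sources used here do not say what the score measures, nor how the restriction to mRNA and the strand were made. The lowest score was 5.0 to 5.03 in each list. Scores served only for percentile ranks within a list. The deposited positions, taken as BED intervals with a count from 0, are printed counting from 1. Distances between regions and peaks are in genomic bases and are not distances along the mRNA.

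Peaks with 1 base in common on a strand were merged into regions. By rule, all 7 genes were named, with every region in 2 or more lists. The genes, spans and rules were chosen with earlier results of these data known. The merge was checked on simulated lists. Alternatives were the better-scored 50% of each list, equal peak numbers (24249), merging across 100 bases, peaks of 50 bases or more, 50% of a peak inside the span, and leaving out each list. Other pathway genes, cell markers, exon positions, motifs and peak sequences were not analysed here, for want of an mm39 genome and annotation. Python 3.11.15, numpy 2.4.6 and pandas 2.3.3 were used.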

Additional observations from a re-analysis of the deposited data

How the results depend on the processing

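No setting that kept all 4 lists moved a count of regions by over 1.5 times: 4 to 5 regions were in both WT lists alone, 2 to 4 in both CKO lists alone and 0 in all 4 lists. In the higher-scored 50% of each list, the share of the genes' regions in both WT lists alone moved from 7.94% to 9.52%. Among all regions it moved from 4.26% to 3.31%. The share in both CKO lists alone moved from 4.76% (3.64% of all regions) to 9.52% (2.44%). In the other settings the WT share was 8.06% to 8.89% (3.9% to 4.42% of all regions). The CKO share was 4.44% to 6.45% (3.29% to 3.93%). Nothing is read from these shares either. Leaving out a list makes fewer lists stand for a group. Regions held only by that group's remaining list then join its class, in any set of genes. Shares of all regions were not computed for these settings, so nothing is read from the counts. The count for WT alone then ran from 5 to 17 (13 without WT 1, 17 without WT 2), that for CKO alone from 5 to 14 (14 without CKO 1, 9 without CKO 2, 6 without WT 1, 5 without WT 2), and that of regions in every remaining list from 0 to 3 (2 without WT 1, 3 without WT 2, 1 without CKO 1). The difference of 1.5 peaks between genotypes became -4.5 without CKO 1 and 7.5 without CKO 2, and 0.5 to 3.5 in the other settings. Of 49 recomputed differences for single genes, 39 moved by less than the spread between lists and 10, in Lilrb4a, Tyrobp and Syk, by as much or more. Among the higher-scored 50% of peaks, the WT regions of Lilrb4a at base 51368459 and of Plcg2 and the CKO region of Syk lost their class; among peaks of 50 bases or more, so did the short Sirpa and Lilrb4a regions. Within replicate numbers (a replicate block added after seeing the data) the differences were 8 and -5, with a mean of 1.5; the labels do not tie same-numbered libraries together. Unknown depth limits every absent peak.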

Other observations

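Peak names carry a number that rises with position in every list, and some numbers are absent between the first and last listed peak of a gene. In Sirpa 0 of 2 (WT 1), 0 of 7 (WT 2), 6 of 9 (CKO 1) and 9 of 14 (CKO 2) numbers were absent. The stretches differ: the 2 WT 1 peaks were neighbours in number, so none could be absent between them, and the CKO stretches began farther 5′. In Syk 4 of 9, 0 of 5, 6 of 10 and 10 of 17 were absent in the same order, and in Plcg2 3 of 12, 9 of 15, 0 of 4 and 2 of 12. In Trem2 1 of 4 was absent in CKO 2 and 0 in the other lists, and in Lilrb4a, of 3 to 4 numbers in each list, 0 were absent. Over whole lists, 28065 of 61914 (WT 1), 24851 of 39584 (WT 2), 28087 of 60022 (CKO 1) and 24249 of 45960 (CKO 2) numbers were listed. Many numbers were thus absent from every list as a whole. These are counts of listed numbers, whereas those of the genes are of absent ones. Counted as listed, Sirpa had 2 of 2, 7 of 7, 3 of 9 and 5 of 14 in the same order. The counts of absent numbers were made after the lists had been seen. Genes that split by genotype were not counted over the whole lists, and what the absent numbers stand for was not tested.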
